A study of Homo sapiens with 18 samples.

Results

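Very long coding mRNAs were followed through RNA immunoprecipitates of the stress granule proteins G3BP1 and TIAR in astrocytoma cells. The set holds 6 of the 14232 genes that have a transcript cluster of a single symbol: HERC1, UBR4, DYNC1H1, PRKDC, AKAP9 and IQGAP1. They were picked by symbol because their signal was high in the G3BP1 immunoprecipitate or because it was raised with arsenite, and all 6 were found, each with 1 transcript cluster. G3BP1 signals and arsenite changes therefore chose these genes, and their values in those comparisons are given as a description, with no test.

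The cells were U251-MG, an established human astrocytoma line, and every group came from this line. There were 6 groups of 3 biological replicates, 18 exon arrays in all: G3BP1 RNA immunoprecipitate (RIP), TIAR RIP and input, each from cells given 500 µM arsenite and from cells given DMSO, with RNA taken at 30 min. Some labels write Tial for the TIAR antibody, after the gene TIAL1. Input is RNA taken without immunoprecipitation, and a RIP is the RNA recovered with the antibody. Values are log2 signals of whole transcript clusters, so a difference of 1 is a doubling, and they show the make-up of each RNA sample, not how much RNA an antibody recovered. A RIP without a specific antibody was not analysed here. One cell line in culture limits the model, and p-values measure only the spread between these replicates.

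In DMSO input VIM (12.95), CD44 (11.71), SOX9 (10.36) and TNC (10.27) had the highest signals of the 11 astrocyte and glioma markers listed. EGFR (9.60), NES (8.75), GFAP (8.45), SLC1A3 (7.99) and ALDH1L1 (7.19) were lower. The astrocyte markers S100B (5.20) and AQP4 (4.78) were among the dimmest transcript clusters, those of the lowest 25%, which lie below 6.29. Of the markers of other cell types on the array, 4 of 4 neuron genes (6.64 to 8.83), 2 of 4 myeloid genes (3.61 to 7.70), 2 of 2 oligodendrocyte genes (6.34 to 6.96), 2 of 4 epithelial genes (3.47 to 11.96) and 2 of 3 endothelial genes (5.38 to 7.11) lay above that bound. The lowest were the leukocyte gene PTPRC and the epithelial gene EPCAM, and the highest the keratin gene KRT8. The neuron genes SYT1 (8.83) and GAD1 (8.80) lay above GFAP. Array medians lay between 7.73 and 8.07. Replicate 3 of the G3BP1 RIP in DMSO and replicate 1 of arsenite input stood apart from their groups, with upper quartiles of 9.45 and 9.17, and values without them stand beside the results they move most.

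Arsenite is an oxidative stressor that halts translation initiation, and mRNAs released from ribosomes then gather with RNA-binding proteins in stress granules. G3BP1 drives the assembly of these granules, and TIAR is a U-rich RNA-binding protein that enters them. In other cell lines, mRNAs with long coding regions are known to be over-represented in stress granules. Of the genes described here, HERC1, UBR4, DYNC1H1, PRKDC and AKAP9 encode proteins among the largest of human cells. IQGAP1 encodes a large scaffold that is much smaller than the other 5 proteins, so the label of a giant protein suits it least, and its G3BP1 signal over input was also the smallest of the 6.

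All 6 mRNAs had a higher mean in the G3BP1 RIP than in input and than in the TIAR RIP of the same treatment. With arsenite the G3BP1 RIP minus input differences ran between 1.04 and 2.85 on the log2 scale, with a median of 2.47. In DMSO they ran between 0.23 and 2.31, with a median of 1.92. The medians over all 14232 genes were 0.11 with arsenite and 0.04 in DMSO. Medians were also taken over the transcript clusters within 0.5 of each member's mean signal. With arsenite they ran from 0.01 around AKAP9 to 0.44 around DYNC1H1 and PRKDC. In DMSO they ran from -0.08 around UBR4 and IQGAP1 to 0.02 around HERC1 and AKAP9. With arsenite the G3BP1 and input arrays did not overlap for 6 of 6 members, and 33.7% of all transcript clusters were higher in this way. In DMSO that held for 5 of 6, with a background of 23.2%, and AKAP9 was the exception. Without G3BP1 DMSO replicate 3 it held for 6 of 6, beside 35.5% of all transcript clusters. Since G3BP1 signal chose the members, nothing is read from these counts.

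**Figure D1:**
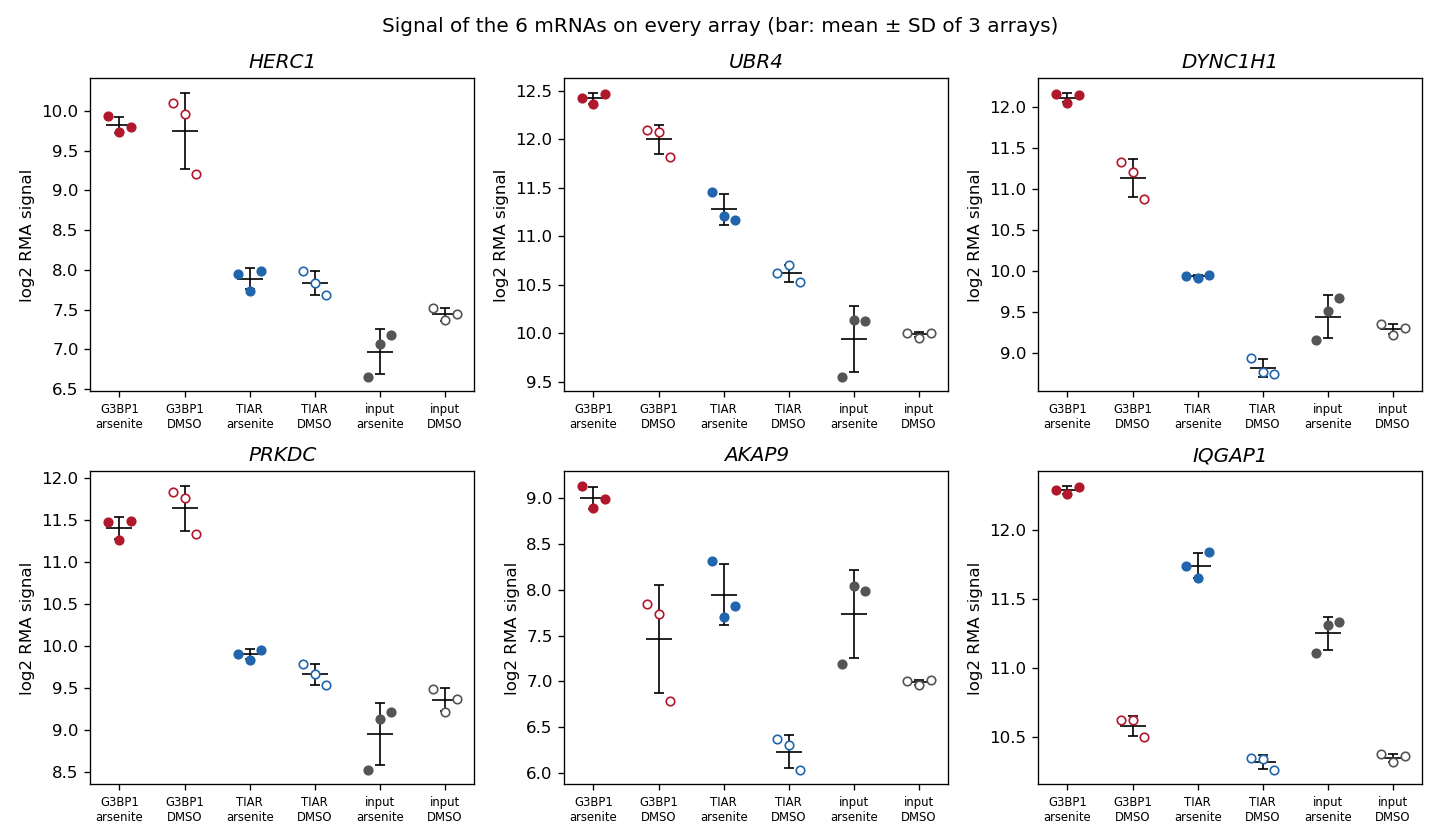
Log2 RMA signal (vertical axis, with its own range in each panel) of each mRNA on every array, in the 6 groups named on the horizontal axis. Filled points are arsenite and open points DMSO, red is G3BP1 RIP, blue TIAR RIP and grey input, and bars are the mean ± SD of 3 arrays. The G3BP1 RIP holds the highest mean in each panel, and for AKAP9 and IQGAP1 all arsenite points lie above the DMSO points of the same fraction.

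HERC1 encodes a giant ubiquitin ligase with a HECT domain, an enzyme that attaches ubiquitin to other proteins. Its transcript cluster, 3628650, read 9.93, 9.73 and 9.80 in the G3BP1 RIP with arsenite, against 10.10, 9.96 and 9.21 in DMSO. In the TIAR RIP it read 7.95, 7.74 and 7.98 with arsenite and 7.99, 7.84 and 7.69 in DMSO. Input gave 6.65, 7.07 and 7.18 with arsenite, and 7.52, 7.37 and 7.44 in DMSO. Every G3BP1 array thus lay above every TIAR array, and every TIAR array above every input array, while arsenite and DMSO overlapped within each RIP. Only input kept the treatments apart, with arsenite lower.

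HERC1 had the widest gap of the 6 between the G3BP1 RIP and input with arsenite. Its means were 9.82 ± 0.10 and 6.97 ± 0.28 (SD, n = 3), a 7.22-fold difference. In DMSO the means were 9.75 ± 0.48 and 7.44 ± 0.08, a 4.97-fold difference. Arsenite minus DMSO was 0.06 ± 0.19 (SE) in the G3BP1 RIP, 0.05 ± 0.19 in the TIAR RIP and -0.48 ± 0.19 in input. The first of these changed sign, to -0.21, without G3BP1 DMSO replicate 3, the array at 9.21. The TIAR value changed sign, to -0.03, without TIAR DMSO replicate 3. Neither RIP difference has a stable direction, so HERC1 was high in G3BP1 irrespective of treatment.

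UBR4 encodes a giant ubiquitin ligase of the N-degron pathway, which recognises proteins by their amino-terminal residues. Its transcript cluster, 2399409, read 12.42, 12.36 and 12.47 in the G3BP1 RIP with arsenite, against 12.10, 12.07 and 11.82 in DMSO. The TIAR RIP gave 11.46, 11.21 and 11.17 with arsenite, against 10.62, 10.71 and 10.53 in DMSO. Input gave 9.55, 10.14 and 10.13 with arsenite, against 10.01, 9.95 and 10.01 in DMSO. The 5 highest groups of this order, G3BP1 arsenite, G3BP1 DMSO, TIAR arsenite, TIAR DMSO and DMSO input, did not overlap from one neighbour to the next, and the input groups overlapped.

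UBR4 was higher with arsenite in both RIPs and not in input. The differences were 0.42 ± 0.14 in the G3BP1 RIP, 0.66 ± 0.14 in the TIAR RIP and -0.05 ± 0.14 in input. Without arsenite input replicate 1, at 9.55, the input value was 0.14, so its sign rests on that array. UBR4 was also the member with the widest TIAR RIP minus input difference, 1.34 ± 0.14 with arsenite, a 2.52-fold difference between means of 11.28 and 9.94.

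DYNC1H1 encodes the heavy chain of cytoplasmic dynein, the motor that carries cargo toward the minus ends of microtubules. Its transcript cluster, 3552847, read 12.15, 12.04 and 12.14 in the G3BP1 RIP with arsenite, against 11.32, 11.20 and 10.87 in DMSO. The TIAR RIP gave 9.93, 9.91 and 9.95 with arsenite, against 8.94, 8.76 and 8.74 in DMSO. Input gave 9.15, 9.51 and 9.66 with arsenite, against 9.35, 9.22 and 9.30 in DMSO. Arsenite stood above DMSO without overlap in both RIPs, and the treatments overlapped in input.

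The arsenite difference of DYNC1H1 was close to a doubling in each RIP, 0.98 ± 0.12 in G3BP1 and 1.12 ± 0.12 in TIAR, beside 0.15 ± 0.12 in input. Without G3BP1 DMSO replicate 3 the first was 0.85. DYNC1H1 also crossed input in the TIAR RIP. Its TIAR mean was above input with arsenite (9.93 against 9.44), and in DMSO it was below it (8.81 against 9.29). Between the RIPs, DYNC1H1 had the largest G3BP1 minus TIAR difference of the 6 in both treatments, 2.18 ± 0.12 with arsenite and 2.32 ± 0.12 in DMSO.

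PRKDC encodes the catalytic subunit of the DNA-dependent protein kinase, which joins broken DNA ends with the Ku proteins. Its transcript cluster, 3134034, read 11.48, 11.26 and 11.49 in the G3BP1 RIP with arsenite, against 11.83, 11.76 and 11.33 in DMSO. From the TIAR RIP came 9.91, 9.83 and 9.95 with arsenite, against 9.78, 9.67 and 9.54 in DMSO. Input gave 8.52, 9.13 and 9.21 with arsenite, against 9.49, 9.21 and 9.37 in DMSO. PRKDC was the 1 member whose mean in the G3BP1 RIP was lower with arsenite, by arrays that overlapped, while TIAR arrays with arsenite were all higher than those in DMSO.

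The arsenite differences of PRKDC were -0.23 ± 0.16 in the G3BP1 RIP, 0.23 ± 0.16 in the TIAR RIP and -0.40 ± 0.16 in input. Without both arrays that stood apart they were -0.39, 0.23 and -0.19. PRKDC stayed far above input in the G3BP1 RIP under both treatments, with differences of 2.46 ± 0.16 with arsenite and 2.29 ± 0.16 in DMSO. The G3BP1 minus TIAR difference was 1.51 ± 0.16 with arsenite and 1.98 ± 0.16 in DMSO.

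AKAP9 encodes a scaffold that anchors protein kinase A and microtubule-nucleating factors at the centrosome and Golgi. IQGAP1 encodes a scaffold that binds actin, calmodulin and the small GTPases CDC42 and RAC1 at the cell cortex. These were the only members whose input arrays with arsenite all lay above those in DMSO. Because their total RNA signal differed as well, the 250 bases before the annotated start of each are shown, from the RefSeq promoter table on GRCh38.p14, on the plus strand, 5′ to 3′. Capitals mark the core of a cyclic AMP response element, TGACG. The AKAP9 stretch is chr7:91940612-91940861 and the IQGAP1 stretch chr15:90387992-90388241.
AKAP9: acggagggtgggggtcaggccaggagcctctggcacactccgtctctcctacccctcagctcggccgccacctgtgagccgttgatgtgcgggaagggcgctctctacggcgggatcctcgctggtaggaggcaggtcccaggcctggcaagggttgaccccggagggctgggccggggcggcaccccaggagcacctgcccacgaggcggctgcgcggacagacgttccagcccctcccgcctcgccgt
IQGAP1: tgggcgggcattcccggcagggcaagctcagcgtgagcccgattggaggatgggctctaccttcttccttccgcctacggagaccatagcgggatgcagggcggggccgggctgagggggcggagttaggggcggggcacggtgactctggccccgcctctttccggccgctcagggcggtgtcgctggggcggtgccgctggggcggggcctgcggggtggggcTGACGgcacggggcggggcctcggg

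Both stretches were rich in G and C, 72.0% in AKAP9 and 74.4% in IQGAP1. They were searched on both strands for 5 motifs: TGACG, the AP-1 site TGANTCA, the antioxidant response element core TGACNNNGC, the heat shock element core GAANNTTC and the amino acid response element core TGATGNAA. IQGAP1 had 1 match, TGACG, whose first base lay 25 bases before the start, and AKAP9 had 0. Among 35114 RefSeq windows of the same length, 21.2% hold TGACG, 6.57% the AP-1 site, 10.9% the antioxidant core, 5.78% the heat shock core and 3.14% the amino acid core. TGACG was also present in the windows of HERC1, UBR4 and DYNC1H1, PRKDC was not searched here, and in HERC1 the same bases began the 1 match to the antioxidant core. A match describes the letters alone, and among the 5 windows searched TGACG was not limited to the members whose input signal was higher with arsenite.

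AKAP9, transcript cluster 3012381, read 9.14, 8.90 and 8.99 in the G3BP1 RIP with arsenite, against 7.85, 7.74 and 6.79 in DMSO. The TIAR RIP gave 8.32, 7.70 and 7.82 with arsenite, against 6.37, 6.31 and 6.03 in DMSO. Input gave 7.19, 8.04 and 7.99 with arsenite, against 7.0, 6.96 and 7.02 in DMSO. Arsenite stood above DMSO without overlap in all 3 fractions, and the spread was widest in the groups that hold the arrays at 6.79 and 7.19.

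The arsenite differences of AKAP9 were 1.55 ± 0.26 in the G3BP1 RIP, 1.71 ± 0.26 in the TIAR RIP and 0.75 ± 0.26 in input, which are 2.92-fold, 3.28-fold and 1.68-fold. Without both arrays that stood apart the first was 1.21 and the last 1.03. Its G3BP1 level over input was below that of the other members except IQGAP1. The G3BP1 RIP exceeded input by 1.27 ± 0.26 with arsenite and by 0.47 ± 0.26 in DMSO. There the array at 6.79 alone overlapped with input, and without it the difference was 0.81. The TIAR RIP minus input difference with arsenite was 0.20 ± 0.26 and turned to -0.07 without arsenite input replicate 1. In the order of the levels, TIAR arsenite, arsenite input, G3BP1 DMSO and DMSO input each overlapped with the next.

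IQGAP1, transcript cluster 3608113, read 12.29, 12.26 and 12.31 in the G3BP1 RIP with arsenite, against 10.62, 10.62 and 10.50 in DMSO. The TIAR RIP gave 11.74, 11.65 and 11.84 with arsenite, against 10.35, 10.34 and 10.26 in DMSO. Input gave 11.11, 11.31 and 11.33 with arsenite, against 10.38, 10.32 and 10.36 in DMSO. All 9 arsenite arrays lay above all 9 DMSO arrays, which held for no other member.

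IQGAP1 had the tightest replicates and the largest G3BP1 arsenite difference of the 6. The differences were 1.71 ± 0.08 in the G3BP1 RIP, 1.43 ± 0.08 in the TIAR RIP and 0.90 ± 0.08 in input, or 3.27-fold, 2.69-fold and 1.86-fold. In DMSO its fractions were almost level, with means of 10.58 in the G3BP1 RIP, 10.32 in the TIAR RIP and 10.35 in input. With arsenite the G3BP1 RIP exceeded input by 1.04 ± 0.08 and the TIAR RIP exceeded it by 0.49 ± 0.08.

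Across the set, the arsenite differences in the G3BP1 RIP were above 0 for 5 members, with a median of 0.70. In the TIAR RIP they were above 0 for 6, with a median of 0.89, and in input for 3, with a median of 0.05. The arsenite arrays were higher without overlap for 4 members in the G3BP1 RIP, with a background of 18.2% of transcript clusters, and for 5 in the TIAR RIP, with 15.3%. In input they were higher without overlap for 2, with 8.99%, and lower for 2, HERC1 and PRKDC, with 25.3%. The RIP comparisons share no arrays, but the arsenite changes chose the members, so these counts are read no further.

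**Figure D2:**
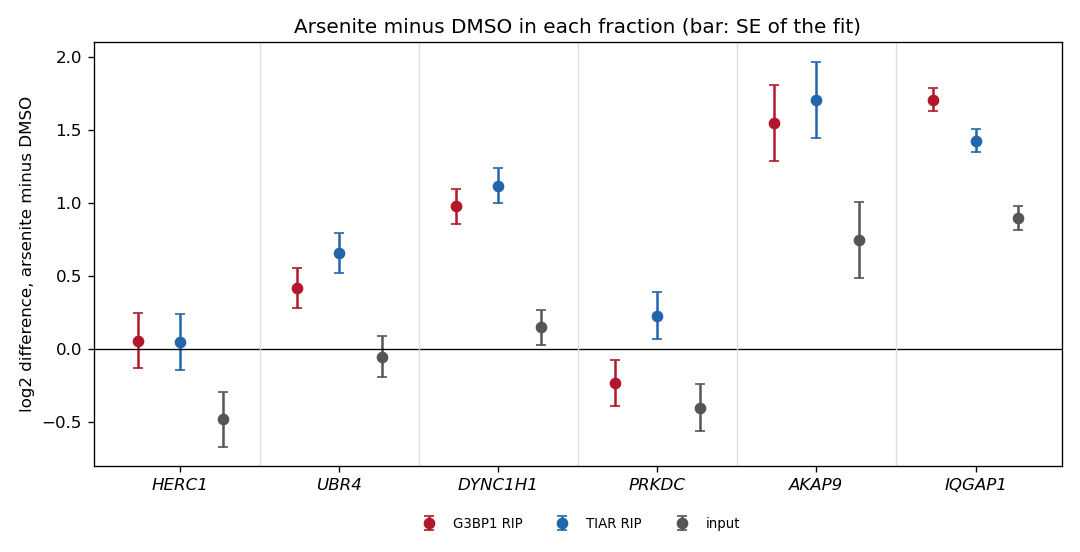
Arsenite minus DMSO difference in log2 signal (vertical axis) for each mRNA (horizontal axis), in G3BP1 RIP (red), TIAR RIP (blue) and input (grey), with the SE of the fit as bars. AKAP9 and IQGAP1 lie highest in all 3 fractions, at 0.75 and above, and in input HERC1 and PRKDC lie clearly below 0 and UBR4 just below it.

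The arsenite change of each RIP minus that of input was above 0 for all 6 members, with all 18 arrays in the fit. For HERC1 and PRKDC the input change was the larger in size, at -0.48 and -0.40. Their changes were 0.06 and -0.23 in the G3BP1 RIP, and 0.05 and 0.23 in the TIAR RIP. The G3BP1 change minus the input change ran between 0.17 ± 0.23 for PRKDC and 0.83 ± 0.18 for DYNC1H1, with a median of 0.67, and the median over all genes was 0.07. With both arrays that stood apart left out, it was above 0 for 5 of 6, with a median of 0.18. PRKDC was then at -0.20, HERC1 at 0.11, AKAP9 at 0.18, UBR4 at 0.19, DYNC1H1 at 0.56 and IQGAP1 at 0.70. With all arrays, the transcript clusters within 0.5 of a member's mean signal had their own medians for this difference. These were 0.13 around HERC1, 0.33 around UBR4, 0.43 around DYNC1H1 and PRKDC, -0.0 around AKAP9 and 0.31 around IQGAP1. PRKDC lay below the median around it. The TIAR change minus the input change ran between 0.52 ± 0.27 for HERC1 and 0.97 ± 0.18 for DYNC1H1. Its median was the same, 0.67, and the median over all genes was 0.07. At like signal the medians ran from -0.01 around AKAP9 to 0.26 around DYNC1H1 and PRKDC. Without both arrays all 6 members were above 0, with a median of 0.49 beside 0.04 over all genes. These comparisons share the input arrays, among them arsenite input replicate 1, which was low for every member. The G3BP1 change minus the TIAR change was smaller, between -0.47 ± 0.23 for PRKDC and 0.28 ± 0.11 for IQGAP1, with a median of -0.15. With both arrays left out that median was -0.30, HERC1 turned to -0.26 beside 0.02 with all arrays, and AKAP9 was at -0.50 beside -0.17.

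The RIPs themselves differed in the same direction for each member. G3BP1 minus TIAR ran between 0.55 and 2.18 with arsenite (median 1.33) and between 0.26 and 2.32 in DMSO (median 1.65). No arrays overlapped for 6 of 6 members in either treatment, with backgrounds of 35.7% and 29.5%. Subtracting each array's median lowered all such differences by 0.23 with arsenite and by 0.19 in DMSO, and IQGAP1 in DMSO, the smallest, was then 0.08.

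The TIAR RIP minus input difference in DMSO was not itself a criterion for choosing the genes, and it was tested with limma over all 22011 transcript clusters. The test is not independent of the choice. The DMSO input arrays also enter the G3BP1 comparison and are the baseline of the input arsenite change. The TIAR DMSO arrays are the baseline of the TIAR arsenite change, so a low DMSO signal in the TIAR RIP goes with a larger arsenite change. The calls are therefore given as a description, and nothing is read from their number. UBR4 was higher in the TIAR RIP (0.63 ± 0.14, adjusted p = 0.00144), with means of 10.62 ± 0.09 and 9.99 ± 0.03. DYNC1H1 was lower (-0.48 ± 0.12, adjusted p = 0.00571), with means of 8.81 ± 0.11 and 9.29 ± 0.06. AKAP9 was lower as well (-0.76 ± 0.26, adjusted p = 0.0311), with means of 6.23 ± 0.18 and 6.99 ± 0.03. By arrays that did not overlap, HERC1, UBR4 and PRKDC were higher, beside 24.3% of transcript clusters, and DYNC1H1 and AKAP9 lower, beside 33.5%. The 3 members called thus went in both directions, and 3 of 6 stands beside 40.6% of all transcript clusters called.

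The other 3 members did not pass that test. HERC1 had a difference of 0.40 ± 0.19 (adjusted p = 0.114) and PRKDC one of 0.31 ± 0.16 (adjusted p = 0.163), and their TIAR and input arrays did not overlap. IQGAP1 had -0.04 ± 0.08 (adjusted p = 0.743) by arrays that overlapped. Without both arrays that stood apart, neither of which is in this comparison, the spread estimated over all groups was smaller and HERC1 and PRKDC were called, at adjusted p = 0.00246 and 0.00988. The AKAP9 call was lost without TIAR DMSO replicate 2 or 3, or without any 1 of the DMSO input arrays, at adjusted p between 0.0575 and 0.107. With arsenite the TIAR RIP was above input for all 6 members, by 0.20 to 1.34 (median 0.71), without overlap for 5 of 6 beside a background of 23.1%, and AKAP9 overlapped.

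**Figure D3:**
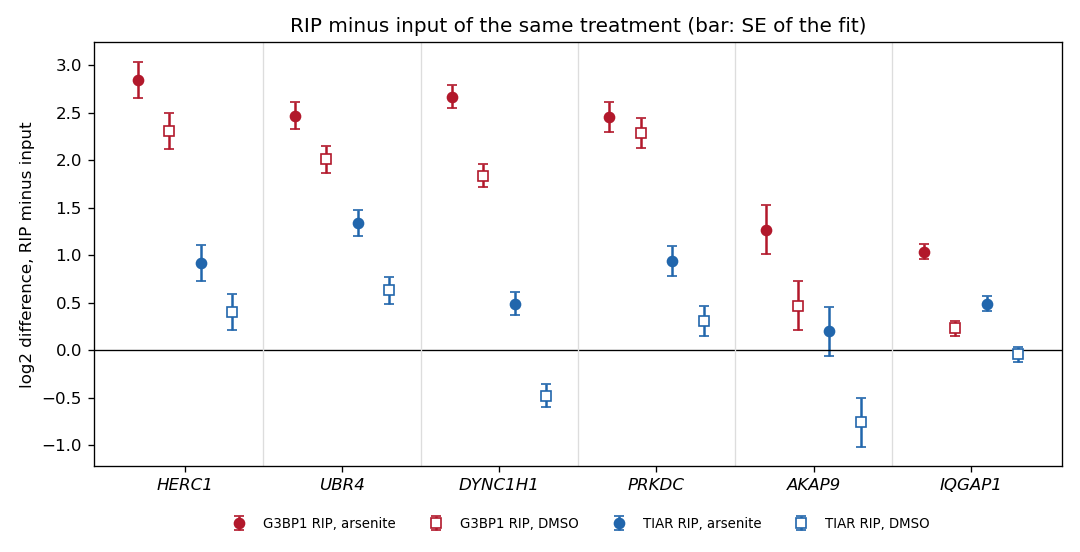
RIP minus input difference in log2 signal (vertical axis) for each mRNA (horizontal axis), with the SE of the fit as bars. Red is G3BP1 and blue TIAR, filled circles are arsenite and open squares DMSO. HERC1, UBR4, DYNC1H1 and PRKDC lie between 1.84 and 2.85 in the G3BP1 RIP, and DYNC1H1 and AKAP9 lie below 0 in the TIAR RIP in DMSO.

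The members also moved together from array to array within a group. After the group means were taken off, their signals correlated at r between 0.718 and 0.965 over the 15 pairs of members and 18 arrays, which share hybridisation, extract and normalization. Such correlations are not given for other genes, so they are not read as a trait of the set. G3BP1 DMSO replicate 3 was below the mean of the other 2 arrays of its group for 6 of 6 members, with a median deviation of -0.43, beside -0.18 over all transcript clusters. Arsenite input replicate 1 was below for 6 of 6 too, with a median of -0.53 beside -0.14. The other long-protein genes listed below were low on these arrays as well. Their medians were -0.35 and -0.19, with 91 and 79 of 127 below. The same sign in 6 of 6 was seen, at medians between -0.16 and -0.08, in G3BP1 arsenite replicate 2, TIAR arsenite replicate 2, TIAR DMSO replicate 3 and DMSO input replicate 2. RNA integrity was not measured in these files, and its part in the deviations was not tested.

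**Figure D4:**
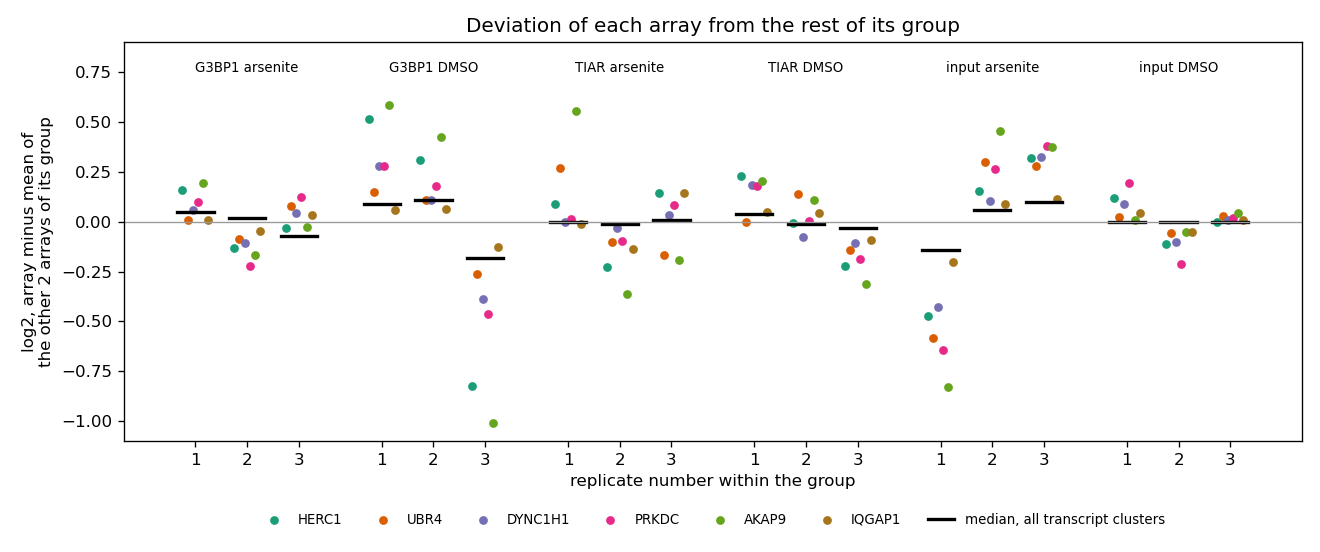
Deviation of each array from the mean of the other 2 arrays of its group in log2 signal (vertical axis), for the 6 mRNAs (coloured points) and as the median over all transcript clusters (black bars), by replicate number within each group (horizontal axis). All 6 points of G3BP1 DMSO replicate 3 and of arsenite input replicate 1 lie below 0, down to -1.01 and -0.83, both for AKAP9.

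The genes whose signal ran most like each member over the 18 arrays, by Pearson correlation, are given as a description. HERC1 and PRKDC were each other's nearest gene (r = 0.992), and both were followed by ACACA, which encodes acetyl-CoA carboxylase of fatty acid synthesis (r = 0.989 with HERC1 and 0.990 with PRKDC). The chromatin reader gene ZMYND8 ran with HERC1 (0.989) and the nuclear import receptor gene KPNB1 with PRKDC (0.990). UBR4 ran with ANXA4, an annexin gene (0.992), with PIK3R4, a subunit gene of the class III phosphoinositide 3-kinase (0.985), and with UTP20, a ribosome biogenesis gene (0.985). DYNC1H1 ran with QSOX2, which encodes a sulfhydryl oxidase (0.990), with the endoplasmic reticulum chaperone gene HYOU1 (0.989) and with the receptor phosphatase gene PTPRS (0.987).

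The scaffold genes had other neighbours. AKAP9 ran with HEXA, a lysosomal hexosaminidase subunit gene (0.975), with the lysine catabolism gene AASS (0.962) and with the proliferation marker gene MKI67 (0.948). IQGAP1 ran with SYVN1, a ubiquitin ligase gene of the endoplasmic reticulum (0.963), with the matrix gene ECM1 (0.949) and again with MKI67 (0.923). All of these levels share the arrays, and their correlations include the differences between the 6 group means.

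A list of 177 other genes known to encode very large proteins, written by hand without the members, was set beside them, and 127 were on the array with a single symbol. The list was written with earlier results of these data known, so its counts are a description and not independent support. The 127 genes were mostly higher in the G3BP1 RIP than in input. With arsenite 87 of 127 were higher and 4 lower, against backgrounds of 29.3% and 15.2%, with a median difference of 1.08 beside 0.11 over all genes. After median centring 81 were higher and 12 lower, and of all transcript clusters 5443 were higher and 5696 lower. In DMSO 78 were higher and 4 lower, against 20.7% and 19.2%, with a median of 0.56 beside 0.04. Without both arrays that stood apart the counts were 88 and 3 with arsenite and 85 and 4 in DMSO. Here and below, counts of called genes with arrays left out have no background of their own. The shares of all transcript clusters called in those fits are not given. The spread estimated without both arrays was smaller, so more calls can pass in that fit.

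Among those higher with arsenite were FBN1, the microfibril gene (2.57 ± 0.17, adjusted p = 2.5e-08), the cadherin gene FAT4 (2.43 ± 0.17, adjusted p = 3.1e-08), the basement membrane gene FRAS1 (2.42 ± 0.15, adjusted p = 1.4e-08) and the giant ubiquitin ligase gene MYCBP2 (2.40 ± 0.21, adjusted p = 2.7e-07). In DMSO the largest were the DNA damage kinase gene ATR (2.09 ± 0.28, adjusted p = 2e-05), MYCBP2 (1.98 ± 0.21, adjusted p = 2e-06), LRBA, an immune regulator of vesicle traffic (1.97 ± 0.25, adjusted p = 1.4e-05), and the ring finger gene RNF213 (1.93 ± 0.12, adjusted p = 1.3e-08). Lower in both treatments were the spectraplakin gene MACF1 (-0.93 ± 0.24 and -1.04 ± 0.24, adjusted p = 0.0046 and 0.0023), at means of 6.44 or less, and the calcium channel gene RYR3 (-0.71 ± 0.10 and -0.35 ± 0.10, adjusted p = 5.2e-05 and 0.015). The DMSO call of RYR3 was lost without DMSO input replicate 2 and after quantile normalization. The members HERC1, UBR4, DYNC1H1 and PRKDC, chosen for this signal, had differences of 2.46 or more with arsenite.

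**Figure D5:**
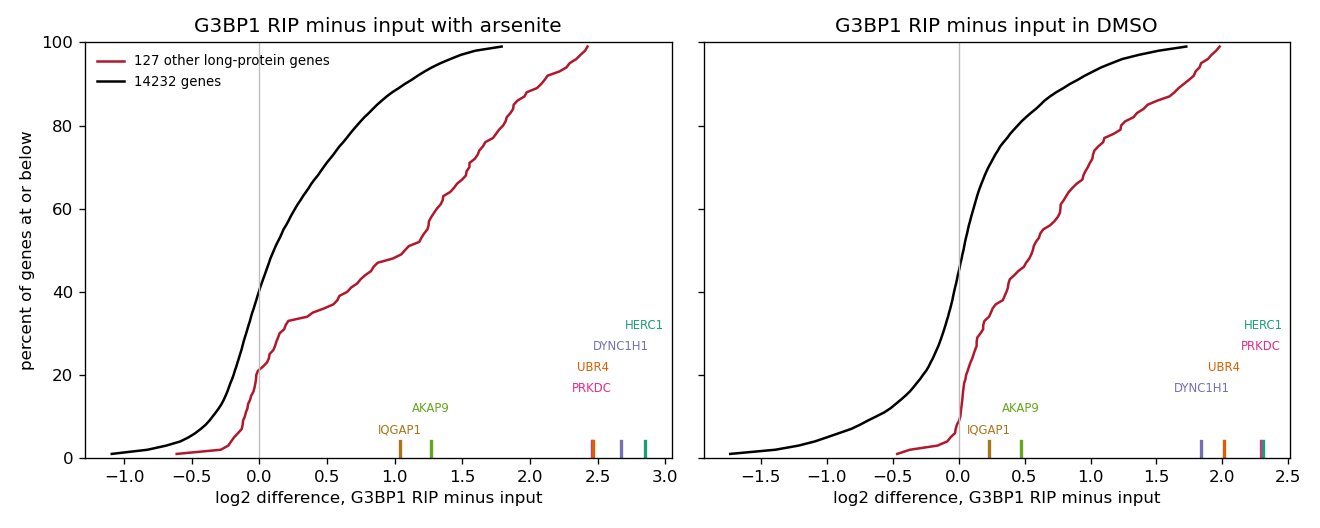
Cumulative percent of genes (vertical axis) against the G3BP1 RIP minus input difference in log2 signal (horizontal axis), with arsenite on the left and in DMSO on the right, for the 127 other long-protein genes (red) and the 14232 genes (black). Coloured ticks mark the 6 members. The curves are drawn by percentile, and the red ones lie to the right of the black ones, with medians of 1.08 and 0.56 beside 0.11 and 0.04.

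In the TIAR RIP the excess over input was smaller. With arsenite 57 of 127 were higher and 7 lower, against backgrounds of 20.3% and 23.5%, with a median of 0.24 beside -0.05 over all genes. In DMSO 42 of 127 were higher than in input and 11 lower, against backgrounds of 16.8% and 23.8%, with a median of 0.06 beside -0.03 over all genes. The zinc finger homeobox gene ZFHX4 (1.93 ± 0.17, adjusted p = 2.1e-07), the ubiquitin-conjugating giant BIRC6 (1.51 ± 0.20, adjusted p = 1.9e-05) and the zinc finger gene HIVEP1 (1.48 ± 0.17, adjusted p = 3.6e-06) were the highest. The kinetochore genes CENPE (-1.84 ± 0.36, adjusted p = 0.00058) and CENPF (-1.72 ± 0.21, adjusted p = 7.8e-06) were the lowest. Between the RIPs, 60 genes of the list were higher in G3BP1 than in TIAR with arsenite and 4 lower, against 28.7% and 15.6%, and in DMSO 60 were higher and 12 lower, against 27.5% and 19.3%.

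With arsenite, 32 long-protein genes rose in the G3BP1 RIP and 9 fell, against backgrounds of 10.4% and 4.08%. The other 86 were not called. The median difference of the list was -0.0 beside 0.01 over all genes, so the middle of the list did not shift. The shares called, 25.2% higher and 7.09% lower, were above those backgrounds. VCAN, a matrix proteoglycan gene (1.56 ± 0.20, adjusted p = 0.00012), FBN1 (1.41 ± 0.17, adjusted p = 8.2e-05), the cadherin gene FAT1 (1.35 ± 0.15, adjusted p = 3.3e-05) and UTRN, which encodes the dystrophin relative utrophin (1.26 ± 0.18, adjusted p = 0.0003), rose most. MTOR, the growth kinase gene (-0.80 ± 0.13, adjusted p = 0.00061), and the huntingtin gene HTT (-0.65 ± 0.15, adjusted p = 0.0078) fell. NBEA, which encodes a giant anchor protein (-0.73 ± 0.21, adjusted p = 0.027), and MYCBP2 (-0.67 ± 0.21, adjusted p = 0.042) fell as well, and both calls were lost without any 1 of the G3BP1 arrays other than DMSO replicate 3, at adjusted p between 0.0557 and 0.168, and with only the compared groups in the fit (0.188 for NBEA and 0.225 for MYCBP2). The balance depended on G3BP1 DMSO replicate 3. Without it 25 rose and 19 fell, and without both arrays that stood apart 31 rose and 28 fell. Without G3BP1 arsenite replicate 2 the total called was 27.

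For TIAR 18 long-protein genes rose with arsenite and 7 fell, against 6.15% and 5.71%, and without both arrays 27 rose and 18 fell. The list median was 0.01 beside -0.02 over all genes. VCAN led there too (1.75 ± 0.20, adjusted p = 4.7e-05), with COL12A1, a collagen gene (1.27 ± 0.18, adjusted p = 0.00026). ZFHX3 (-1.21 ± 0.07, adjusted p = 3.9e-07) and the histone methyltransferase gene KMT2D (-0.95 ± 0.08, adjusted p = 6.5e-06) fell most. In input 6 rose and 18 fell, against 2.52% and 11.2%, and without both arrays 17 rose and 20 fell. There the list median was -0.01 beside -0.06 over all genes. VCAN rose in input (1.14 ± 0.20, adjusted p = 0.0018), where AKAP9 and IQGAP1 were also higher, while HTT (-0.98 ± 0.15, adjusted p = 0.00057) and MYCBP2 (-1.09 ± 0.21, adjusted p = 0.0027) fell. The arsenite change of the G3BP1 RIP exceeded that of the TIAR RIP for 13 genes of the list and fell short of it for 3, against 8.55% and 5.05%, and without both arrays the counts were 18 and 17.

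Relatives and partners of each member were then followed by role, as shares of each short list beside the share of all transcript clusters called. For G3BP1 RIP minus input those backgrounds are 29.3% higher and 15.2% lower with arsenite, and 20.7% and 19.2% in DMSO. For arsenite minus DMSO they are 10.4% higher and 4.08% lower in the G3BP1 RIP, 6.15% and 5.71% in the TIAR RIP, and 2.52% and 11.2% in input. These short lists too were chosen with earlier results of these data known. Some genes on the array are also in the long-protein list, so the lists are not separate evidence. These are 4 of 14 ligase genes, 0 of 19 dynein and dynactin genes, 2 of 11 kinase and end-joining genes, 2 of 23 anchor genes and 1 of 15 IQGAP genes. Of 18 giant or related ubiquitin ligase genes, 14 were on the array. In the G3BP1 RIP 13 (92.9%) were higher than input with arsenite and 0 lower, and in DMSO 12 (85.7%) were higher and 1 (7.14%) lower. MYCBP2, BIRC6 (2.35 ± 0.20, adjusted p = 2.5e-07) and RNF213 (2.30 ± 0.12, adjusted p = 3.6e-09) led with arsenite, and KCMF1, the partner of UBR4, was the 1 lower in DMSO (-0.52 ± 0.11, adjusted p = 0.0014). With arsenite 0 of 14 rose in the G3BP1 RIP and 5 (35.7%) fell, among them UBR2 (-1.0 ± 0.22, adjusted p = 0.0055), HERC3 (-0.85 ± 0.18, adjusted p = 0.0049) and UBR3 (-0.82 ± 0.23, adjusted p = 0.027). Without both arrays that stood apart 12 fell, in a fit for which no background share is given. In input 6 (42.9%) fell.

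Dynein and dynactin genes went both ways in the G3BP1 RIP, at shares near the background. Of 19 on the array, 6 (31.6%) were higher than input with arsenite and 4 (21.1%) lower, and in DMSO 5 (26.3%) were higher and 5 lower. The dynactin genes DCTN1 (1.86 ± 0.11, adjusted p = 7.3e-09) and DCTN2 (1.19 ± 0.12, adjusted p = 1.1e-06) were higher with arsenite. Another dynactin gene, DCTN6, was lower (-0.95 ± 0.19, adjusted p = 0.00091). So were the light chain genes DYNLT3 (-1.29 ± 0.16, adjusted p = 1.3e-05) and DYNLRB1 (-0.64 ± 0.13, adjusted p = 0.00068). With arsenite 3 (15.8%) rose in the G3BP1 RIP, all light chain genes, led by DYNLT1 (0.86 ± 0.24, adjusted p = 0.027), and 4 (21.1%) fell, led by DCTN6 (-0.99 ± 0.19, adjusted p = 0.0028). Without both arrays 3 rose and 8 fell. For TIAR 1 rose, DYNC1LI1 (1.18 ± 0.18, adjusted p = 0.00045), a light intermediate chain gene, and 2 fell, with 2 and 4 without both arrays.

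Of 11 end-joining and PI3K-like kinase genes on the array, 7 (63.6%) were higher in the G3BP1 RIP than in input with arsenite and 0 lower, and in DMSO 7 were higher and 1 (9.09%) lower. ATR (1.83 ± 0.28, adjusted p = 6.8e-05) and MTOR (1.79 ± 0.13, adjusted p = 4e-08), relatives of PRKDC, led with arsenite. XRCC4, a partner of DNA ligase in end joining, fell with arsenite in the G3BP1 RIP (-1.47 ± 0.24, adjusted p = 0.00077), as 1 of 2 that fell beside 3 that rose. Without both arrays 6 fell and 3 rose.

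Of 23 protein kinase A anchor and centrosome genes, 15 (65.2%) were higher in the G3BP1 RIP than in input with arsenite and 0 lower, with 9 (39.1%) and 2 (8.70%) in DMSO. The Golgi matrix gene GOLGA2 led in both (1.84 ± 0.18 with arsenite, adjusted p = 9.1e-07). AKAP1, a mitochondrial anchor gene, was the 1 that rose with arsenite in the G3BP1 RIP (0.87 ± 0.10, adjusted p = 3.8e-05), and 4 (17.4%) fell, such as the kinase A regulatory subunit gene PRKAR1A (-0.59 ± 0.10, adjusted p = 0.0011). Without both arrays 1 rose and 7 fell. In input 0 rose and 8 (34.8%) fell, unlike AKAP9, whose input arrays with arsenite were the higher ones.

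Of 15 IQGAP family and partner genes on the array, 11 (73.3%) were higher in the G3BP1 RIP than in input with arsenite and 2 (13.3%) lower, with 9 and 2 in DMSO, the lower shares being near or under the background. With arsenite 5 (33.3%) rose in the G3BP1 RIP, among them the formin gene DIAPH1 (0.78 ± 0.19, adjusted p = 0.011) and IQGAP3 (0.71 ± 0.14, adjusted p = 0.0027), and 2 fell, CDC42 (-0.62 ± 0.12, adjusted p = 0.0026) and the catenin gene CTNNB1 (-0.48 ± 0.12, adjusted p = 0.011). Without both arrays 4 rose and 3 fell. For TIAR 6 (40.0%) rose and 0 fell, IQGAP2 among them (0.92 ± 0.25, adjusted p = 0.026), and without both arrays 6 rose and 3 fell. In input the actinin gene ACTN1 rose (0.27 ± 0.06, adjusted p = 0.0072) and 3 fell, and without both arrays 6 rose and 3 fell.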

How the data were processed

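RNA of U251-MG cells was measured on 18 exon arrays. Log2 signals were deposited by the authors, made with RMA in Affymetrix Expression Console per the submitters' processing notes; the labels name no version or build. Array number limits the precision. Symbols came from the platform table: of 22011 transcript clusters, 14432 (65.6%) had 1 symbol, 2408 several and 5171 none, and RefSeq changed 0. The brightest of a gene was used.

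Group means (6) were estimated by lmFit of limma 3.58.1 under R 4.3.3, moderated by eBayes and Benjamini-Hochberg adjusted over all transcript clusters within a comparison, called under 0.05. No pair of arrays was identical.

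The members, lists, rule for named genes (largest called changes, highest correlations) and both arrays that stood apart were chosen with earlier results of these data known. Proteins of at least 2500 residues were to define the long-protein list. No protein table was used here, so it was written by hand from gene knowledge. Alternatives were a replicate block, compared groups alone, trended robust prior, array weights, dropping the lowest 25%, median centring, quantile normalization and leaving out arrays. Replicate numbers were not taken to pair the samples, since in no comparison was every correlation of same-numbered deviations over 0.1. That rule cannot exclude pairing. For G3BP1 minus TIAR in DMSO the correlations were 0.35, 0.0124 and 0.416 for replicates 1, 2 and 3.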

Additional observations from a re-analysis of the deposited data

Results flagged for a closer look

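Among the 16 long-protein genes whose arsenite change differed between the G3BP1 RIP and the TIAR RIP by the limma interaction test, the 4 largest excesses and all 3 shortfalls of G3BP1 are given. ZFHX3, a zinc finger homeobox gene, had 0.03 ± 0.07 in G3BP1 and -1.21 ± 0.07 in TIAR, a difference of 1.24 ± 0.10 (adjusted p = 5.8e-06). The methyltransferase gene KMT2A differed by 1.01 ± 0.14 (adjusted p = 0.0003), with 0.93 in G3BP1 and -0.08 in TIAR. SPEN, a transcriptional repressor gene, differed by 0.95 ± 0.20 (adjusted p = 0.005), with 0.47 in G3BP1 and -0.48 in TIAR. The teneurin gene TENM1 differed by 0.92 ± 0.25 (adjusted p = 0.025), with 0.90 in G3BP1 and -0.02 in TIAR.

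The other 3 differed the other way. The kinetochore motor gene CENPE had -0.52 ± 0.36 in G3BP1 and 1.34 ± 0.36 in TIAR, a difference of -1.87 ± 0.50 (adjusted p = 0.022). The fatty acid synthase gene FASN had -0.33 in G3BP1 and 0.41 in TIAR, a difference of -0.74 ± 0.11 (adjusted p = 0.00052). MTOR had -0.80 in G3BP1 and -0.13 in TIAR, a difference of -0.68 ± 0.18 (adjusted p = 0.02). The calls of CENPE, TENM1 and MTOR were lost without single arrays, at adjusted p between 0.0537 and 0.0656: CENPE without G3BP1 DMSO or arsenite replicate 2, TIAR DMSO replicate 3 or TIAR arsenite replicate 1, TENM1 without G3BP1 arsenite replicate 1, TIAR DMSO replicate 1 or TIAR arsenite replicate 2, and MTOR without TIAR DMSO replicate 3 or TIAR arsenite replicate 1.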

How the results depend on the processing

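For the members, the count called in TIAR RIP minus input in DMSO was 5 in place of 3 with array weights, median centring, compared groups alone, quantile normalization and without both arrays that stood apart. Of all 22011 transcript clusters, 5556 were higher and 4201 lower with centring, and 5333 and 4333 with quantile normalization, in place of 3693 and 5242. For weights, compared groups alone, the replicate block and arrays left out, the shares of all transcript clusters called are not given. The members' median G3BP1 minus TIAR difference with arsenite was 1.10 with centring and 1.19 with quantile normalization, and in DMSO 1.83 with weights, 1.46 with centring, 1.48 with quantile normalization and 1.85 without both arrays. The median G3BP1 minus input difference with arsenite was 2.23 with quantile normalization.

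Long-protein genes called in the arsenite comparisons were 64 (G3BP1), 48 (TIAR) and 40 (input) with weights. They were 16 (G3BP1) and 10 (input) with compared groups alone, 38 (TIAR, 60.5% of them higher, beside 72.0%) with centring, and 45 (TIAR) and 37 (input) without both arrays. For the difference between the RIPs they were 44 with weights and 35 without both arrays. Both centring and quantile normalization gave 68.0% of G3BP1 arsenite calls higher in place of 78.0%. Over all transcript clusters this share was 58.3% and 55.5% in place of 71.8%, so it fell there too. For TIAR with centring the share over all transcript clusters was 48.5% in place of 51.9%. Quantile normalization gave 58.3% for TIAR, 38.2% for input and 90.0% for TIAR minus input in DMSO in place of 79.2%. Over all transcript clusters it gave 49.0% for TIAR, 39.4% for input and 55.2% for TIAR minus input in DMSO in place of 41.3%. With centring, 14 of 33 input calls were higher in place of 6 of 24, and of the G3BP1 minus TIAR calls 73.1% with arsenite in place of 93.8% and 70.6% in DMSO in place of 83.3%. Over all transcript clusters, 34.3% of input calls were higher with centring in place of 18.3%. Of all G3BP1 minus TIAR calls, 45.5% with arsenite were higher in place of 64.7%, and 45.6% in DMSO in place of 58.7%. Centring moved the median of all transcript clusters by 0.17 in TIAR minus input in DMSO and by -0.17 in G3BP1 minus input with arsenite.

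HERC1 changed sign in the G3BP1 arsenite comparison with weights (-0.22), with quantile normalization (-0.03) and without both arrays or G3BP1 DMSO replicate 3 alone (-0.21), and in TIAR without TIAR DMSO replicate 3 (-0.03). UBR4 in input was 0.11 with weights, 0.05 with centring, 0.16 with quantile normalization and 0.14 without both arrays or arsenite input replicate 1 alone. AKAP9 in TIAR minus input with arsenite was -0.07 without the same arrays. IQGAP1 in TIAR minus input in DMSO was 0.13 with centring and 0.03 with quantile normalization. DNAH6, an axonemal dynein gene, was 0.02 in G3BP1 minus input with arsenite after quantile normalization, in place of -0.25. Over single arrays left out, these ran between -0.21 and 0.24 (HERC1 in G3BP1), -0.03 and 0.12 (HERC1 in TIAR), -0.15 and 0.14 (UBR4) and -0.07 and 0.36 (AKAP9). The causes were not tested.

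Leaving out 1 array gave member medians of 0.59 to 0.77 for arsenite in G3BP1, 0.84 to 0.92 in TIAR and -0.05 to 0.22 in input. They were 2.26 to 2.57 and 1.85 to 2.03 for G3BP1 minus input with arsenite and in DMSO, 1.29 to 1.38 and 1.53 to 1.85 for G3BP1 minus TIAR, and 0.58 to 0.81 for TIAR minus input with arsenite, and 2 to 3 members were called in DMSO. Long-protein genes called were 27 to 44 for arsenite in G3BP1, 18 to 20 in TIAR and 17 to 22 in input. They were 86 to 90 and 68 to 86 for G3BP1 minus input, 42 to 51 for TIAR minus input in DMSO and 11 to 21 for the difference between the RIPs.

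With the replicate block, 3 members were called in TIAR minus input in DMSO, and no count of members or long-protein genes moved by over 1.5 times. The MYCBP2 call for arsenite in G3BP1 was lost (adjusted p = 0.0572), and 3 ubiquitin ligase genes in place of 6 were called for arsenite in input. The replicate numbers were not taken to pair the samples, and pairing is not excluded. Other length minimums for the list were not run, and the mean of all transcript clusters of a gene cannot differ, since each member has 1. Among long-protein genes, dim signal such as that of MACF1 limits the precision of its difference.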
